A study of Homo sapiens with 10 samples.

Results

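The secreted Wnt antagonists are proteins that cells release to hold back Wnt signalling, and several of their genes are known to be silenced by DNA methylation in colorectal cancer. The set was chosen by name, as listed colorectal methylation targets, and holds 10 of the 58884 genes in the count tables: SFRP1, SFRP2, SFRP4, SFRP5, FRZB, WIF1, DKK1, DKK2, DKK3 and DKK4. The choice was made with earlier results of these data known. Poly(A) RNA was sequenced from HCT116, a human colorectal carcinoma cell line (6 libraries, genotype wild type, replicates 1, 2, 3, 7, 8 and 9), and from DNMT1 KO, a derivative with a targeted DNMT1 gene, whose enzyme copies DNA methylation onto new strands (4 libraries, replicates 1 to 4). Both were grown without further treatment in McCoy's 5A medium with fetal calf serum. The derivative is 1 line, obtained as a gift, and per the study it is hypomorphic, with low levels of a truncated protein, so it stands for reduced rather than absent DNMT1. The labels place replicate 1 of each group in batch 1, replicates 2 and 3 of each group in batch 2, DNMT1 KO replicate 4 in batch 3 and HCT116 replicates 7 to 9 in batch 4. DNA methylation itself was not analysed here.

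Wnt ligands signal by binding Frizzled receptors together with the co-receptors LRP5 and LRP6, which stabilises beta-catenin and turns on target genes. SFRP proteins, FRZB and WIF1 bind the ligands themselves, whereas DKK1, DKK2 and DKK4 bind LRP5 and LRP6. DKK3 is the divergent member of its family and does not act on LRP5 and LRP6 in the same way. In the intestine Wnt signalling maintains the stem cells of the crypt, and colorectal cancers commonly activate it inside the cell, as HCT116 does through a mutation of CTNNB1, the gene of beta-catenin.

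Promoter sequence was available for 6 of the 10 genes in RefSeq (GRCh38.p14). The 250 bases before the start are shown for DKK1, the abundant member, and for SFRP2 and WIF1, which stayed at or near 0, with every CpG (the dinucleotide that DNMT1 methylates) in capitals, 5′ to 3′ on the strand of the gene. DKK1 lies at chr10:52314031-52314280 on the plus strand, SFRP2 at chr4:153789084-153789333 on the minus strand and WIF1 at chr12:65121306-65121555 on the minus strand.
DKK1: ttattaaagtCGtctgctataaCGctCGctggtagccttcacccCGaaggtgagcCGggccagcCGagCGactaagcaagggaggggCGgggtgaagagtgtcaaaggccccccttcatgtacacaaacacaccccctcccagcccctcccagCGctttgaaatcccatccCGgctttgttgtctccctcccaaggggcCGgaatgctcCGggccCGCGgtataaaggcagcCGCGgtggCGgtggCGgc
SFRP2: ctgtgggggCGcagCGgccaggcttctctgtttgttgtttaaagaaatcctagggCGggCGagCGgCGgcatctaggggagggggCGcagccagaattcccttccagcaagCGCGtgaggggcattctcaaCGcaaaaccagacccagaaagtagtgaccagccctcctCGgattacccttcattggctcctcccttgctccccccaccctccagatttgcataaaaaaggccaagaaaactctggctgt
WIF1: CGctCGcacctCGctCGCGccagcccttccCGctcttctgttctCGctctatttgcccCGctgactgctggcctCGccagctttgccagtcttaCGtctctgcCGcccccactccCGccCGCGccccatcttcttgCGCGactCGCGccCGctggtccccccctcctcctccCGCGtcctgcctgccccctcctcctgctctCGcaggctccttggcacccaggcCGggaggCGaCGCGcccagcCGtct

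In the window from 250 bases before to 50 bases after the start, the WIF1 promoter held 29 CpGs, SFRP5 28, SFRP4 23, DKK1 20, FRZB 17 and SFRP2 15, against a median of 14 over 35116 promoters. Such densities were common, since 24.2% of all promoters held as many as WIF1 and 48.9% as many as SFRP2. The abundant DKK1 therefore lay within the range of CpG counts of the members near 0. DKK1 alone among the 6 held TATAAA, whose first base was 30 bases before the start on the strand of the gene. It alone also held a T-cell factor core, searched on both strands as CTTTG followed by 2 bases that are each A or T, which was present as CTTTGAA at 95 and as CTTTGTT at 76 bases before the start. TATAAA occurred in 11.5% of all promoters and a core in 13.8%, and a match of letters does not show that a factor binds.

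The libraries held from 26700853 to 85991812 counts, and every pair of replicates differed by more than sampling noise. DNMT1 was first examined as a check of the labels. It lay at 152.8 ± 64.2 CPM (counts per 1000000 counts of a TMM-scaled library; SD, n = 6) in HCT116 and at 19.5 ± 3.68 CPM (n = 4) in DNMT1 KO, with no overlap (log2 fold change -2.97, SE 0.33, edgeR quasi-likelihood adjusted p = 1.74e-05). A gene was called when its adjusted p was under 0.05 and its log2 fold change beyond 1 in either direction. By this rule 7.42% of the 19279 genes tested were called higher in DNMT1 KO and 6.49% lower. Scaling by library totals alone moved the median log2 fold change of all tested genes from -0.07 to 0.14 and the share of calls that were higher from 53.4% to 66.3%. The study describes the replicates as separately grown cultures, so p-values measure the spread between cultures of 1 line in each group.

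Of the 10 antagonist genes, 3 had enough counts to be tested (SFRP1, FRZB and DKK1), 1 of these was called higher in DNMT1 KO (SFRP1) and 0 were called lower. At an unadjusted p under 0.05, 2 were higher and 0 lower by edgeR. The share of all genes at that unadjusted threshold is not given here, so this count is a description. DESeq2 called 2 members higher and 0 lower, and of all 19279 genes tested it called 1629 higher and 1447 lower. SFRP1 passed the filter on low counts only through its level in DNMT1 KO, so its place among the tested genes is not independent of its difference. The levels of the 10 genes fell into very unequal classes. DKK1 was among the most abundant transcripts of the cells, SFRP1, FRZB, DKK3 and DKK4 had traces, and SFRP2, SFRP4, SFRP5, WIF1 and DKK2 had at most 10 counts each over all 10 libraries together.

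**Figure D1:**
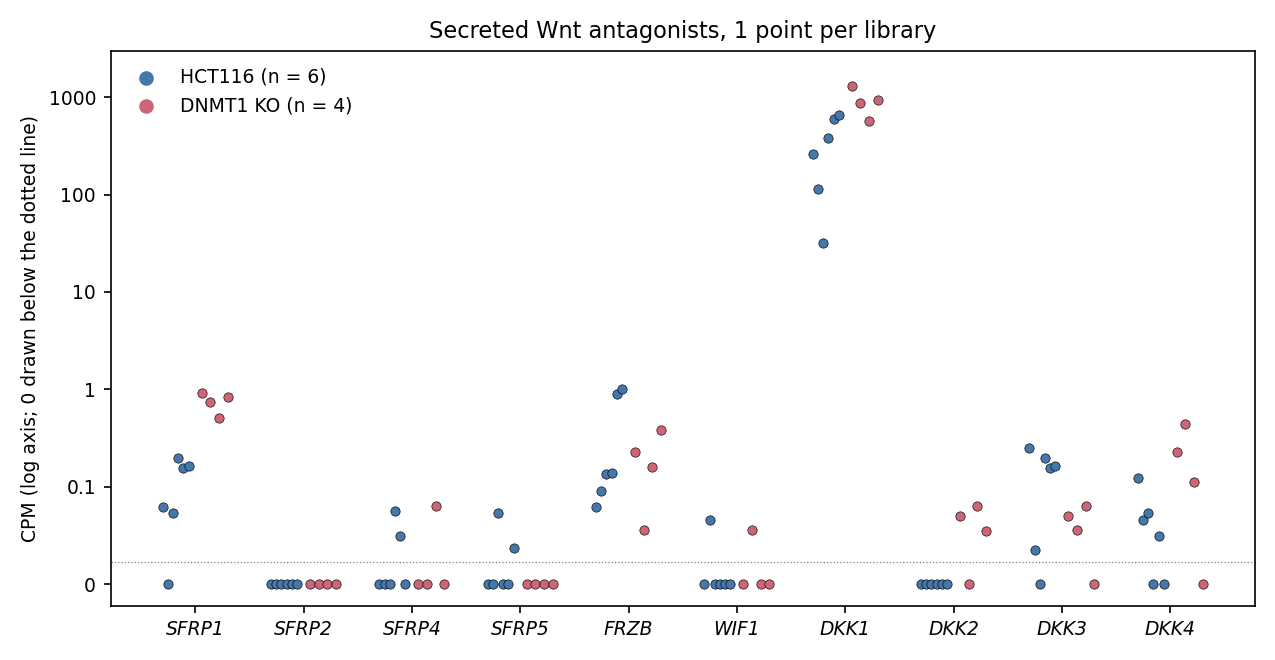
CPM of each antagonist gene (log axis, with libraries at 0 drawn below the dotted line), 1 point per library for 6 HCT116 and 4 DNMT1 KO libraries. DKK1 stood at 32.1 to 1298 CPM, while the highest value of any other member was 1.01 CPM, for FRZB.

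Among the ligand-binding antagonists, SFRP1 (ENSG00000104332, chromosome 8, hg38) rose in DNMT1 KO, from a trace to a low level. SFRP1 sequesters Wnt ligands through a Frizzled-like domain and is a frequently methylated gene of colorectal tumours. The HCT116 libraries held 2, 0, 2, 14, 10 and 14 SFRP1 counts in replicates 1, 2, 3, 7, 8 and 9, and the DNMT1 KO libraries held 36, 42, 32 and 24 in replicates 1 to 4. On the CPM scale HCT116 ran from 0 to 0.195 and DNMT1 KO from 0.508 to 0.909. Every DNMT1 KO library was above every HCT116 library, an order shown by 8.4% of all tested genes. The means were 0.105 ± 0.077 CPM (SD, n = 6) and 0.749 ± 0.174 CPM (n = 4), with a log2 fold change of 2.72 (SE 0.60, edgeR quasi-likelihood adjusted p = 0.00516). The summed counts of 42 and 134 gave a ratio of 5.72 (exact 95% interval 4.02 to 8.30, counting error only). Low counts were mostly even numbers in 9 of the 10 libraries, so both mates of a read pair may have been counted, which makes such intervals too narrow, and with the counts of those libraries halved the interval was 3.58 to 9.97. Even so, the DNMT1 KO level was low, since 12218 protein-coding genes had a higher mean level per kilobase of exon there.

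The difference in SFRP1 was present in both batches that held both lines. In batch 1 the counts were 2 in HCT116 and 36 in DNMT1 KO, and in batch 2 they were 0 and 2 against 42 and 32. With batches 1 and 2 alone and batch as a term, the change was 4.23 on the log2 scale (SE 0.80, edgeR adjusted p = 0.00759), where 7.37% of the 18681 genes tested were called higher. Within batch 2 alone it was 4.52, and the adjusted p was 0.0511. HCT116 batch 4 lay at 0.171 ± 0.0212 CPM (n = 3), above the 0.0385 ± 0.0336 CPM (n = 3) of batches 1 and 2, and below all DNMT1 KO libraries. In bulk RNA, fewer expressing cells and less RNA per cell cannot be told apart.

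FRZB (ENSG00000162998, chr2:182833275-182866637, minus strand), also called SFRP3, had low levels like SFRP1. Its counts in HCT116 were 2, 4, 5, 10, 58 and 87, and in DNMT1 KO 9, 2, 10 and 11. HCT116 replicates 8 and 9, both of batch 4, were above all other libraries, and the rest of the groups overlapped. The means were 0.389 ± 0.440 CPM (n = 6) and 0.201 ± 0.145 CPM (n = 4), and the fitted log2 fold change, -1.06 (SE 0.86), did not pass (edgeR adjusted p = 0.471). With batch as a term its sign turned to 0.44 (adjusted p = 0.825).

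The other ligand-binding antagonists were at or near 0 in both lines. SFRP2 (chr4:153780591-153789083) had 0 counts in all 10 libraries, which allows a level of up to 0.00892 CPM over the HCT116 libraries and up to 0.0160 CPM over those of DNMT1 KO. SFRP4 (chr7:37905932-38025695) had 6 counts in HCT116, in replicates 7 and 8, and 4 in DNMT1 KO, all in replicate 3, a ratio of 1.20 (exact 95% interval 0.248 to 5.04). SFRP5 (chr10:97766751-97771999) had 4 counts in HCT116 and 0 in DNMT1 KO. WIF1 (chr12:65050626-65121305), which binds ligands through a domain of its own, had 2 counts in each line, all in replicate 2. For these 4 genes no difference was detectable at this depth, where 3 counts in a library correspond to 0.0349 to 0.104 CPM.

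Levels near 0 were common among protein-coding genes. Of 19869 protein-coding genes, 5582 (28.1%) had a mean under 0.1 CPM in both lines, as did 5 of the 10 members. Of the 7685 protein-coding genes under 0.5 CPM in HCT116, 301 (3.92%) reached 1 CPM in DNMT1 KO, and 0 of the 9 such members did. SFRP1 came nearest, at 0.749 CPM. These limits in CPM were chosen after the values were seen.

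**Figure D2:**
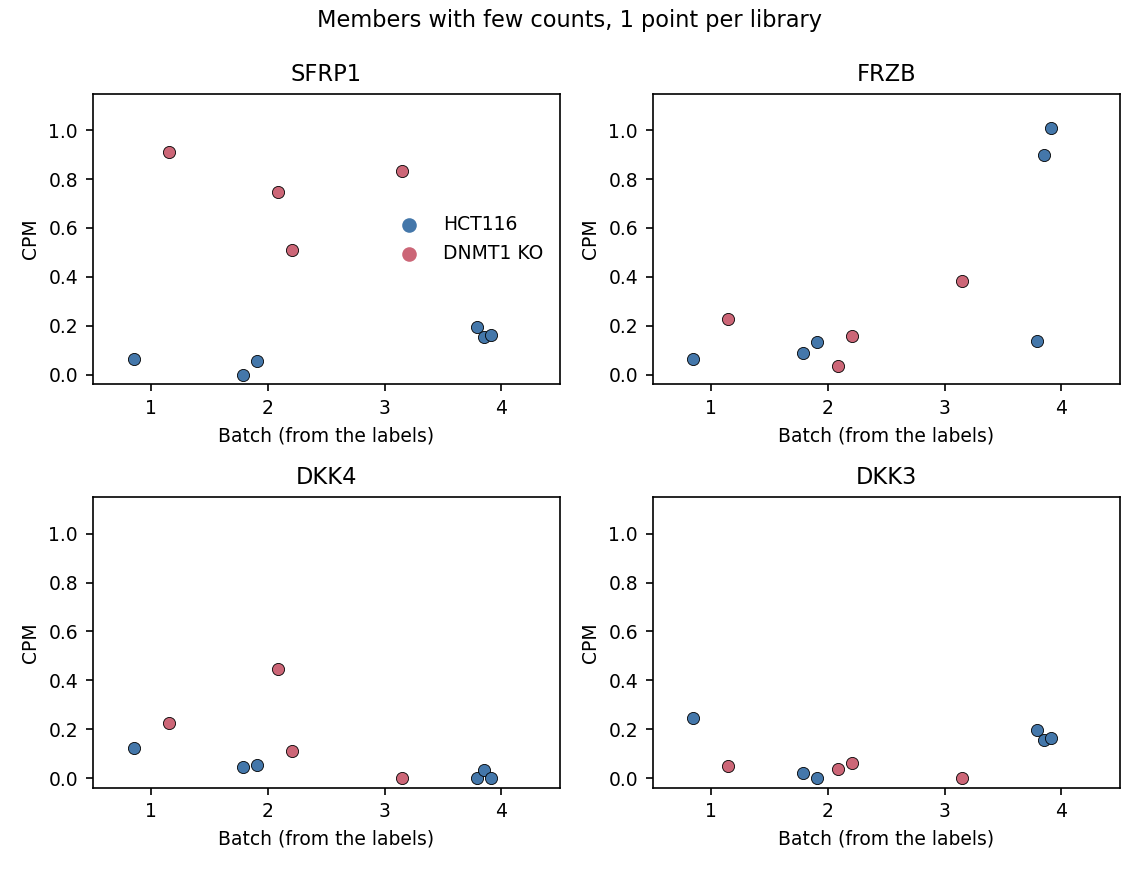
CPM of SFRP1, FRZB, DKK4 and DKK3 against the batch of the labels, 1 point per library (linear axes). SFRP1 lay at 0.508 to 0.909 CPM in DNMT1 KO and at 0.195 CPM or less in HCT116, whereas FRZB was highest in HCT116 replicates 8 and 9 of batch 4.

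Among the LRP-binding antagonists, DKK1 (ENSG00000107984, chr10:52314281-52318042, plus strand) was by far the most abundant. DKK1 is itself a known target of beta-catenin and T-cell factors, and works as a feedback inhibitor. In HCT116 it lay at 259, 114 and 32.1 CPM in replicates 1, 2 and 3 and at 379, 593 and 659 CPM in replicates 7, 8 and 9. In DNMT1 KO it lay at 1298, 875, 567 and 931 CPM in replicates 1 to 4. The DNMT1 KO libraries were mostly higher, but the groups overlapped, since replicate 3 of DNMT1 KO was below HCT116 replicates 8 and 9. The means of 339 ± 253 CPM (SD, n = 6) and 918 ± 299.5 CPM (n = 4) gave a log2 fold change of 1.44 (SE 0.58, edgeR quasi-likelihood adjusted p = 0.114), which did not pass. By DESeq2 it was 1.47 (adjusted p = 0.0459), which did. Per kilobase of exon the mean was 153 CPM in HCT116, exceeded by 179 protein-coding genes, and 413 CPM in DNMT1 KO, exceeded by 24. DKK1 made up 98.97% to 99.92% of the summed level per kilobase of the 10 members in every library.

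The difference in DKK1 was larger within the shared batches. The log2 ratio of DNMT1 KO over HCT116 (CPM plus 0.5) was 2.32 in batch 1 and 3.53 in batch 2. In the fit of batches 1 and 2 with batch as a term, the log2 fold change reached 2.99 (SE 0.49, edgeR adjusted p = 0.00402), and in a fit without HCT116 batch 4, added after the data were seen, it was 2.76 (adjusted p = 0.00929). Batch 4 held only HCT116 and batch 3 only DNMT1 KO, so in these libraries batch and line cannot be told apart.

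DKK1 also varied within HCT116. It lay at 135 ± 115 CPM in the 3 libraries of batches 1 and 2 and at 544 ± 146 CPM in the 3 of batch 4 (log2 fold change 2.01, SE 0.55, edgeR adjusted p = 0.0385). This was 1 of 1 members tested in that comparison, in which 8.03% of 18656 genes were called in either direction. The call was lost on leaving out any 1 of replicates 2, 3, 7, 8 or 9, with log2 fold changes of 1.53 to 2.20 and adjusted p-values of 0.0509 to 0.159. What differed between the batches, other than their number, is not given in the labels.

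**Figure D3:**
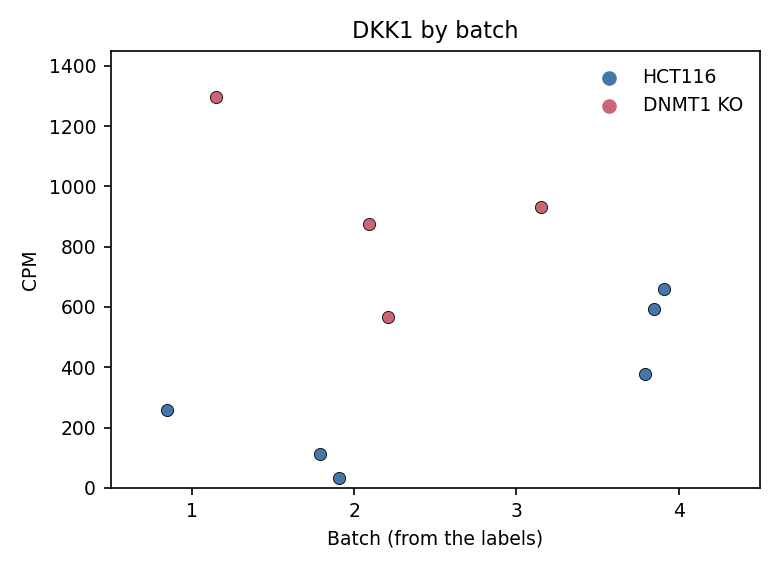
DKK1 in CPM against the batch of the labels, 1 point per library (linear axis from 0). In batches 1 and 2 every DNMT1 KO library (567 to 1298 CPM) was above every HCT116 library (32.1 to 259 CPM), and in batch 4 the HCT116 libraries lay at 379, 593 and 659 CPM, the latter pair above DNMT1 KO replicate 3 at 567 CPM.

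DKK1 shared 227 exon bases, 10.2% of its exon length, with PRKG1-AS1 on the opposite strand, and it was the 1 member with an exon overlapping that of another gene. The counting as described names no strand setting, so reads from this overlap cannot be assigned to either gene. PRKG1-AS1 itself had a log2 fold change of 1.27 (edgeR adjusted p = 0.0746) and was not called.

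The remaining DKK genes had few counts and were not tested. DKK4 (ENSG00000104371, chromosome 8), another LRP-binding inhibitor, had 4, 2, 2, 0, 2 and 0 counts in HCT116 and 9, 25, 7 and 0 in DNMT1 KO. DNMT1 KO was higher in both shared batches, but its replicate 4 was at 0 and the groups overlapped. The summed counts of 10 and 41 gave a ratio of 7.35 (exact 95% interval 3.62 to 16.5, and 2.53 to 23.1 from halved counts), and without the filter on low counts the log2 fold change was 2.36 (edgeR adjusted p = 0.125). DKK3 (chr11:11963106-12009769) had 8, 1, 0, 14, 10 and 14 counts in HCT116 and 2, 2, 4 and 0 in DNMT1 KO. The summed counts of 47 and 8 put HCT116 at 3.28 times DNMT1 KO (exact 95% interval 1.53 to 8.03, and 1.33 to 15.3 from halved counts), the groups overlapped, and the fit without a filter gave -1.69 (adjusted p = 0.301). The shared batches went opposite ways for DKK3, with a log2 ratio of DNMT1 KO over HCT116 (CPM plus 0.5) of -0.44 in batch 1 and 0.10 in batch 2, and HCT116 batch 4 held 38 of its 47 HCT116 counts. DKK2 (chr4:106921802-107283806) had 0 counts in all HCT116 libraries and 2, 0, 4 and 1 in those of DNMT1 KO, and the fit without a filter did not pass (adjusted p = 0.0714).

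The genes around the members gave no common direction. Within 500 kb of the 10 starts, 67 genes were tested, of which 5 were called higher and 6 lower. Over all tested genes the shares were 7.42% and 6.49%. The median log2 fold change of the 67 was 0.01. Near SFRP1, 0 of 3 tested neighbours were called, and GOLGA7 and GINS4 had log2 fold changes of -0.01 and 0.53. Near DKK1, 1 of 3 was called, LNCAROD, a long noncoding RNA gene, at 1.53 (edgeR adjusted p = 0.00697). Near the silent WIF1, 1 of 7 tested neighbours was called higher and 2 lower. The methionine sulfoxide reductase gene MSRB3 rose by 2.82 on the log2 scale (adjusted p = 2.31e-05), from 19.8 to 140.3 CPM, while KRT18P60, a pseudogene (-1.80, adjusted p = 0.0101), and LINC02454 (-1.01, adjusted p = 0.0416) fell. WIF1 had 2 counts in each line.

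The genes most like SFRP1 over the 10 libraries were NANOS1 (Pearson r of log2(CPM + 0.5) 0.991), SKIDA1 (0.988) and ELMO1 (0.988), and 161 genes had an r above 0.95. Their means went from 2.11 to 8.82 CPM, from 1.14 to 16.2 CPM and from 0.0599 to 0.396 CPM. For DKK1, added after its values were seen, ACBD7 (0.984), PCOLCE2 (0.979) and CAMK4 (0.971) came first and 10 genes were above 0.95. The libraries share line and batch, so these coefficients are descriptions.

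Elsewhere in the pathway, genes changed in both directions. Of 90 listed Wnt genes beside the members, 73 were tested, 12 (16.4%) were called higher and 9 (12.3%) lower, against 7.42% and 6.49% of all genes, and 6 were at 0 in all libraries. Their median log2 fold change was 0.27, against -0.07 over all genes tested, and remained 0.27 with genes absent from 1 line set to their bound. Between the HCT116 batches, 5 of 71 Wnt genes tested were lower in batch 4 and 0 higher. Of all 18656 genes tested there, 8.03% were called in either direction. The 5 were WNT7A, WNT7B (51.1 to 20.01 CPM, log2 fold change -1.38, edgeR adjusted p = 0.0442), WNT9A, RSPO4 (3.68 to 0.899 CPM, -2.06, adjusted p = 0.0189) and LGR6. The members of these lists were chosen with earlier results known.

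Among other secreted or membrane-bound Wnt inhibitors, 2 of 6 tested genes rose (33.3%) and 1 fell (16.7%). Over all genes tested the shares were 7.42% and 6.49%. NOTUM, which removes the lipid that Wnt ligands need, ran from 5.27 to 14.6 CPM in HCT116 and from 66.4 to 158.7 CPM in DNMT1 KO (log2 fold change 3.51, SE 0.35, edgeR adjusted p = 4.99e-06). DRAXIN, a secreted guidance protein that can bind LRP6, rose from 1.98 ± 0.709 to 11.5 ± 5.14 CPM (log2 fold change 2.55, adjusted p = 0.000136). TRABD2A, a membrane protease that cleaves Wnt proteins, fell from 7.44 to 3.59 CPM (-1.05, adjusted p = 0.0116), a change near the threshold. Its call was lost with library totals alone (-0.84), in batch 2 alone and with the replicate block. It was also lost without HCT116 replicate 2 or 3 or DNMT1 KO replicate 2 (-0.99 to -0.95). DKKL1 (1.13, adjusted p = 0.0753) and IGFBP4 (1.61, adjusted p = 0.194) did not pass, though DKKL1 did in 3 of 23 alternative fits. IGFBP4 passed with batch as a term (3.48, adjusted p = 0.014).

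Of the listed Wnt ligands, 1 of 14 tested rose (7.14%) and 3 fell (21.4%), against 7.42% and 6.49% of all genes tested. WNT16, the most abundant of them in HCT116, lay at 148 to 403 CPM there and at 8.46 to 27.5 CPM in DNMT1 KO (log2 fold change -3.89, SE 0.42, adjusted p = 1.03e-05). WNT3A, a ligand of the beta-catenin branch, had 1387 counts in HCT116 and 2 in DNMT1 KO, a ratio of 387 (exact 95% interval 107 to 3197). WNT7B fell from 35.5 to 12.8 CPM (-1.47, adjusted p = 0.0409), with overlap. Its call was lost with library totals alone, with 10 counts required in every library, in batch 2 alone, and without any 1 of HCT116 replicates 1, 2, 3 or 7 or DNMT1 KO replicates 1, 2 or 4 (-1.54 to -1.05). WNT11, known for signalling outside the beta-catenin branch, rose from 1.01 ± 0.446 to 6.87 ± 1.80 CPM (2.76, adjusted p = 5.52e-05). WNT9A (-1.13, adjusted p = 0.055) and WNT10B (-0.11, adjusted p = 0.856) did not pass, though WNT9A did in 11 of 23 alternative fits. WLS, the carrier that brings Wnt ligands to the cell surface, rose from 60.6 ± 25.0 to 344 ± 71.2 CPM (2.51, adjusted p = 2.64e-05), and PORCN, which adds their lipid, did not pass (-0.35, adjusted p = 0.527).

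At the receptors, 1 of 17 tested genes rose (5.88%) and 2 fell (11.8%), against 7.42% and 6.49% of all genes tested. FZD9 rose from 1.08 to 4.09 CPM (log2 fold change 1.94, edgeR adjusted p = 0.0052), but it did not pass in batch 2 alone (1.43, adjusted p = 0.137) or in replicates 1 to 3 of both lines with neither block nor batch term (1.30, adjusted p = 0.0977). ROR1, a receptor tyrosine kinase for Wnt ligands, fell from 8.27 to 0.977 CPM (-3.06, adjusted p = 2.21e-05). FZD8 had 135 counts in HCT116 and 0 in DNMT1 KO, 25.1-fold lower against a floor of 3 counts over the group. That figure leaves out counting error in HCT116. The exact interval of the ratio of DNMT1 KO over HCT116 reached 0.0497, and is too narrow where both mates were counted. FZD8 passed the filter on low counts only through HCT116. FZD6 (-0.12, adjusted p = 0.816) and PTK7 (-0.24, adjusted p = 0.540), the most abundant of the uncalled, did not pass. In the R-spondin system, which protects Frizzled receptors from removal, 3 of 6 tested genes rose (50%) and 1 fell (16.7%). RNF43, the ubiquitin ligase that removes Frizzled receptors, lay at 33.2 to 67.1 CPM in HCT116 and at 0 to 0.338 CPM in DNMT1 KO (log2 fold change -7.99, adjusted p = 4.89e-07). RSPO4 rose from 2.29 to 14.8 CPM (2.71, adjusted p = 0.00159), RSPO1 from 0.249 to 1.04 CPM (2.04, adjusted p = 0.00396) and LGR4, an R-spondin receptor, from 10.9 to 43.3 CPM (1.99, adjusted p = 3.12e-05). Without HCT116 batch 4 the change of RSPO4 was 2.01 (adjusted p = 0.00179), and in batch 2 alone that of RSPO1 was 3.20 (adjusted p = 0.0303). ZNRF3 (0.36, adjusted p = 0.304) and LGR6 (0.52, adjusted p = 0.806) did not pass.

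Inside the cell, 2 of 20 tested genes of transduction rose (10%) and 1 fell (5%), against 7.42% and 6.49% of all genes tested. PYGO1, a co-activator of beta-catenin, rose from 1.24 to 16.7 CPM (log2 fold change 3.75, edgeR adjusted p = 9.46e-06), NKD1, a feedback inhibitor, from 21.8 to 45.4 CPM (1.06, adjusted p = 0.0063), and TLE1, a co-repressor, fell from 23.4 to 10.8 CPM (-1.11, adjusted p = 0.017). The call of NKD1 was lost without DNMT1 KO replicate 2 (0.98), and that of TLE1 with library totals alone (-0.91) and without HCT116 replicate 3 or DNMT1 KO replicate 1 or 2 (-1.13 to -0.90). CTNNB1 (0.58, adjusted p = 0.0997) and BCL9L (-0.72, adjusted p = 0.160) did not pass, though BCL9L did in 4 of 23 alternative fits. Among known target genes, 4 of 14 tested rose (28.6%) and 2 fell (14.3%), RNF43, NKD1 and NOTUM being among them. PROX1 had 0 counts in HCT116 and 283 in DNMT1 KO, 169-fold higher against the same floor. That figure leaves out counting error in DNMT1 KO. The exact interval of the ratio began at 137, and is too narrow where both mates were counted. PROX1 passed the filter on low counts only through DNMT1 KO, so its place among the tested genes is not independent of its difference. CD44 fell from 853 ± 363 to 90.0 ± 19.2 CPM (-3.24, adjusted p = 1.22e-05). The other called gene, SP5, rose from 1.36 to 12.5 CPM (3.21, adjusted p = 0.000257). MYC (0.23, adjusted p = 0.581) and CCND1 (-0.46, adjusted p = 0.308) did not pass.

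**Figure D4:**
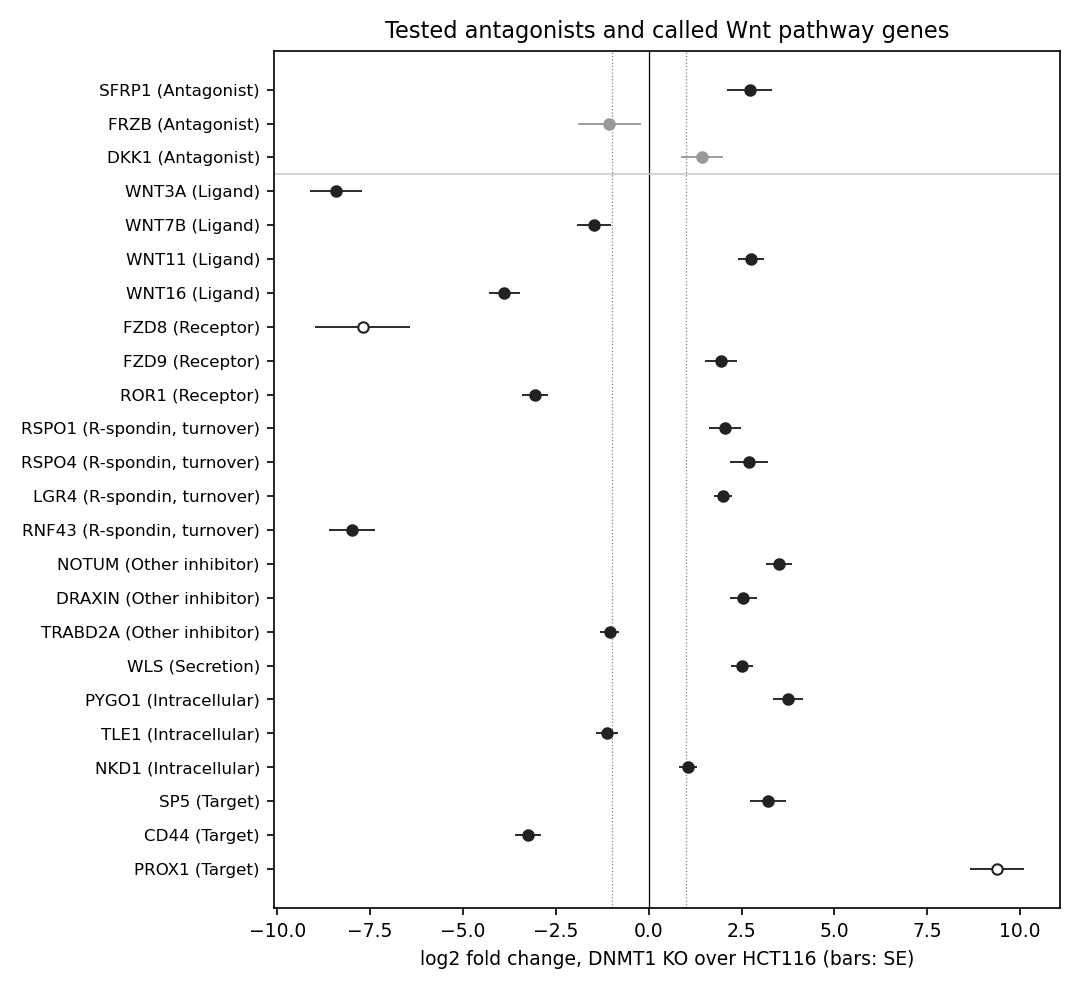
Log2 fold change of DNMT1 KO over HCT116 (bars, SE of the edgeR fit) for the 3 antagonists tested and the 21 pathway genes called. Grey points did not pass, open points mark genes with 0 counts in 1 line, whose fitted value is no bound, and dotted lines stand at 1 and -1. SFRP1 at 2.72 lay near WNT11 and RSPO4, and RNF43 and WNT3A were lowest among genes with counts in both lines.

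Some markers of cell type differed between the lines. Of 9 tested colon epithelial markers, EPCAM, KRT8, KRT18 and CDH1 fell and VIL1 rose, against 6.49% and 7.42% of all genes tested. VIL1, with 4 counts in HCT116, passed the filter on low counts only through DNMT1 KO. CDX2 (30.7 and 36.0 CPM, log2 fold change 0.23, edgeR adjusted p = 0.601), KRT19, CDH17 and GPA33 were not called. The summed level of all 12 listed, mostly KRT8, KRT18 and KRT19, was 2520 to 6130 CPM in HCT116. In DNMT1 KO it was 646 to 1431 CPM, with KRT20 at 0 in all libraries. Of 12 fibroblast markers, a cell type known to express SFRP and DKK genes, 6 were tested. Of these 5 rose (COL3A1, COL6A3, LUM, PDGFRB and FBLN1), against 7.42% of all genes tested. COL1A1, at 12.5 and 6.72 CPM, did not pass. COL3A1 (6 counts in HCT116) and LUM (2) passed the filter on low counts only through their level in DNMT1 KO. The untested COL1A2, DCN, PDGFRA, FAP and THY1 had at most 0.143 CPM in any library. The summed level of all 12 was 22.7 to 34.1 CPM in HCT116 and 68.3 to 111 CPM in DNMT1 KO, with POSTN at 0. Markers also differed within HCT116, where CDH1 stood at 247 CPM in batches 1 and 2 and at 48.1 CPM in batch 4 (log2 fold change -2.38, edgeR adjusted p = 0.00423) and COL6A3 at 4.69 and 0.359 CPM (-3.73, adjusted p = 0.013). The part of these markers in the results for SFRP1 and DKK1 was not tested.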

How the data were processed

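RNA-seq counts were deposited as 1 table per library. Per the labels and the study's methods, the authors trimmed paired reads (FastQC 0.11.4, Trim Galore 0.4.1), used Bowtie2, an aligner without spliced alignment, on hg38, and counted reads over exons with featureCounts, with no strand option named. Reads spanning an exon junction could be lost, and in 9 of 10 libraries most low counts were even numbers, so both mates of a pair may have been counted. A fit with the counts of those 9 libraries halved was run as an alternative.

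Gene symbols came from GENCODE release 44 by Ensembl identifier (58472 of 58884 matched), and coordinates from the count tables. Counts were scaled by TMM, filtered with filterByExpr at its defaults and tested with edgeR 4.0.16 (quasi-likelihood, line as the sole term, two-sided, Benjamini-Hochberg over 19279 genes) in R 4.3.3. SE is the size of the log2 fold change over the square root of F. Intervals and floors (95%, 3 counts) cover counting error only and are too narrow where both mates were counted, so the ratios of SFRP1, DKK3 and DKK4 were also computed from halved counts, a step added after the data were seen. The edgeR fit was tested on simulated counts without batch differences, and the halving was not tested. Alternatives were other scalings and filters, DESeq2 1.42.0, a likelihood ratio test, batch terms and subsets, halved counts and leaving out each library.

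Named genes were all members, DNMT1, and in each Wnt list up to 4 called genes with the largest change at 1 CPM or more and up to 2 uncalled genes with the highest mean, with the 3 tested genes most like SFRP1, the called member. FZD8, SP5 and WNT7A, the neighbours, PRKG1-AS1 and the genes like DKK1 were named beyond that rule, after their values were seen. The members and lists were chosen with earlier results of these data known. Tables of 3 HCT116 replicates that the labels do not list were not used.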

Additional observations from a re-analysis of the deposited data

Results flagged for a closer look

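Of 72 groups of libraries examined among the members and named genes with at least 20 counts, 3 held 1 library far from the rest by Dixon's 95% criterion, where chance would give about 3.6. No member of the antagonist set was among them. WNT11 lay at 1.87 CPM in HCT116 replicate 8, against 0.681 to 1.01 CPM in the other HCT116 libraries. RNF43 lay at 67.1 CPM in HCT116 replicate 3, against 33.2 to 43.6 CPM in the others. In DNMT1 KO replicate 3, LGR6 stood at 2.09 CPM, whereas the other 3 libraries held 0 to 0.354 CPM, and without that library its log2 fold change turned from 0.52 to -1.53, neither of which passed the test.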

How the results depend on the processing

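DNMT1 kept its direction and call in all 23 alternatives (log2 fold change -3.05 to -2.23). Members called higher numbered 1, and 2 (SFRP1 and DKK1) without a filter, with DESeq2, with a batch term over all libraries or over batches 1 and 2, in replicates 1 to 3 with or without a replicate block, and without HCT116 batch 4. The count was 0 when 10 counts were required in every library, which removed SFRP1 from the test, and 1 on leaving out any 1 library. Members called lower numbered 0 throughout. SFRP1 ran from 2.52 to 2.96 on leaving out a library and was lost in batch 2 alone (4.52). DKK1 passed without a filter (1.40), with DESeq2 (1.47), with batch as a term (2.98), in batches 1 and 2 (2.99), in batch 2 alone (3.31), with the replicate block (3.13), in the same libraries without it (2.76) and without HCT116 batch 4 (2.76), but not on leaving out a library (1.24 to 1.74, adjusted p 0.0523 to 0.256). FRZB was 0.44 with batch as a term and -1.52 to -0.67 on leaving out a library. It could not be tested in every alternative, since stricter subsets removed it.

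Wnt genes called lower numbered 9, and 5 with 10 counts required in every library, 14 with batch as a term in either fit, and 5 to 12 on leaving out a library (5 without HCT116 replicate 3). Those called higher ran from 10 to 17. Between HCT116 batches, members called numbered 2 without a filter (DKK1 and FRZB) and 0 to 1 on leaving out a library, and DKK1 there ran from 1.53 to 2.89. Of 19 named pathway genes called, 14 kept direction and call in all alternatives and 0 reversed. WNT7B, FZD9, TRABD2A, TLE1 and NKD1 lost the call in some. Of 13 uncalled, 4 passed in some alternatives, WNT9A in 11 of 23, BCL9L in 4 of 23, DKKL1 in 3 of 23 and IGFBP4 in 2 of 22. Another 4 changed sign. WNT10B was 0.11 with totals alone, 0.25 with batch as a term, 0.26 in batches 1 and 2, 0.43 in batch 2 alone, 0.25 with the replicate block, 0.20 without it, 0.30 without HCT116 batch 4 and -0.22 to 0.071 on leaving out a library. FZD6 was 0.083 with totals alone, 0.0011 in batches 1 and 2, 0.025 with the block and -0.27 to 0.042 on leaving out a library. LGR6 was -0.075 with batch as a term, -0.072 in batches 1 and 2, -0.62 with the block, -0.028 without it, -0.41 without HCT116 batch 4 and -1.53 to 1.40 on leaving out a library. MYC was -0.10 in batch 2 alone. The causes were not tested.

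Whether replicate numbers pair the samples could not be decided. Between same-numbered libraries of the lines, the correlation of deviations was 0.55 for replicate 1, -0.27 for replicate 2 and 0.37 for replicate 3. No values for differently numbered pairs are given for comparison, and same-numbered libraries of replicates 1 to 3 also share a batch. Depth limits the members near 0, for which counts of 0 cannot be told from levels under the floor.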
